A study of Eucalyptus urophylla with 24 samples.

Results

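Magnesium chelatase places the magnesium ion into protoporphyrin IX and so opens the chlorophyll branch of tetrapyrrole synthesis. Its subunit genes and the gene of its stimulating protein GUN4 were followed in triploid and diploid *Eucalyptus urophylla* over 4 stages of the shoot, the terminal bud and the young, mature and senescent leaf. The 5 genes were picked by identifier from the 26033 genes of the expression table, through the names in its annotation, with earlier results of these data known. They are *ChlH* (Eucgr.A02348), *ChlD* (Eucgr.J00729), a pair of *ChlI* genes (Eucgr.D00551 and Eucgr.D00547) and *GUN4* (Eucgr.H00371). The annotation gives the term magnesium chelatase activity to 5 genes, of which 4 are among those picked. The other is in none of the sums, ratios and shares below. RNA sequencing covered 8 groups of 3 libraries each: triploid and diploid plants at each of the 4 stages, with no treatment named in the labels. The triploids came from sexual polyploidization, and the plants were clones. The age of the plants is not given in the sources used here, nor is how many clones or trees the 3 libraries of a group come from, so p-values measure only the spread between these libraries. The titles carry 1 code for the triploid and another for the diploid plants, so that ploidy and any other way in which these plants differ cannot be told apart.

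The chelatase is a complex of 3 kinds of subunit. ChlH binds the porphyrin and carries the catalytic site. ChlI is an ATPase of the AAA+ family, and ChlD is a related protein that joins the ChlI ring to ChlH. GUN4 is no subunit: it binds the porphyrin substrate and product and stimulates the enzyme, and it is named for the genomes uncoupled mutants of *Arabidopsis*, in which signalling from the plastid to the nucleus is disturbed. Ferrochelatase draws on the same protoporphyrin IX for heme. In *Arabidopsis* ChlI also has a pair of genes, of which one gives most of the transcript.

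All 5 genes lie on the plus strand. In the coordinates of the deposited table, *ChlH* is on chromosome 1 at 38939349 to 38947007, *ChlD* on chromosome 10 at 7744447 to 7753896 and *GUN4* on chromosome 8 at 1697774 to 1699194. Both *ChlI* genes are on chromosome 4, Eucgr.D00547 at 10295877 to 10297527 and Eucgr.D00551 at 10366719 to 10369585. They stand 69191 bases apart, with 2 other genes of the table between them. The identifiers follow the *E. grandis* genome, whose release is not given in the sources used here. The table describes Eucgr.D00547 as a chloroplastic-like ChlI and Eucgr.D00551 only as a hypothetical protein, with the same enzyme entry (K03405) for both. How reads that match both *ChlI* genes were assigned is not given in the sources used here, so the split between them, above all the lower one, is uncertain.

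The libraries held 38395755 to 64400745 counted reads (median 56603217) in the 22 libraries whose counts could be matched. The tissues carried their markers in part. The summed FPKM (fragments per kilobase of transcript, relative to all mapped fragments) of cyclin-B and cyclin-dependent kinase B, 2 genes of dividing cells, was 111 to 165 in terminal buds and young leaves and at most 1.92 in mature and senescent leaves, while 6 genes of the knotted-1 family did not mark the buds. Among the diploid libraries, number 3 of the terminal bud and numbers 1 and 3 of the young leaf stood apart: their genes deviated from the group mean with an SD of 0.249 to 0.343 on the log2 scale, against 0.119 to 0.227 in the other 21 libraries. The typical gene also moved between groups: over the 11530 genes with at least 1 FPKM in every library, the median log2 ratio of triploid to diploid was −0.20, 0.01, 0.36 and 0.33 along the 4 stages, terminal bud to senescent leaf. Log2 differences were therefore also taken after each library was divided by its median ratio, called scaled below, and these are differences relative to the typical gene.

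On the FPKM scale *GUN4* had the highest mean of the 5 genes in every group but triploid mature and senescent leaves, where *ChlH* did. *ChlI* Eucgr.D00547 had the lowest mean in every group, with *ChlD* next. In triploid mature leaves *ChlH* averaged 306 ± 3.99 FPKM and *GUN4* 299 ± 15.0 FPKM (SD, n = 3 here and below), levels at the 99.1 and 99.0 percentiles of the 19174 genes tested. *ChlI* Eucgr.D00547 ranged over the libraries between 1.08 and 11.7 FPKM, from 63 to 779 counted reads, and its lowest count has a counting error of 12.6%. For the other 4 genes the lowest count was 838, in *GUN4*, with a counting error of 3.45%. Comparing levels between genes rests on the gene lengths that the authors' program took. In CPM, counted reads relative to all counted reads, 1 FPKM stood for 5.42 in *ChlH*, 3.76 in *ChlD*, 1.80 in Eucgr.D00551, 1.18 in Eucgr.D00547 and 0.510 in *GUN4*. These factors varied between libraries by at most 0.488% (CV), so comparisons of 1 gene or of 1 ratio between groups do not depend on them.

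**Figure D1:**
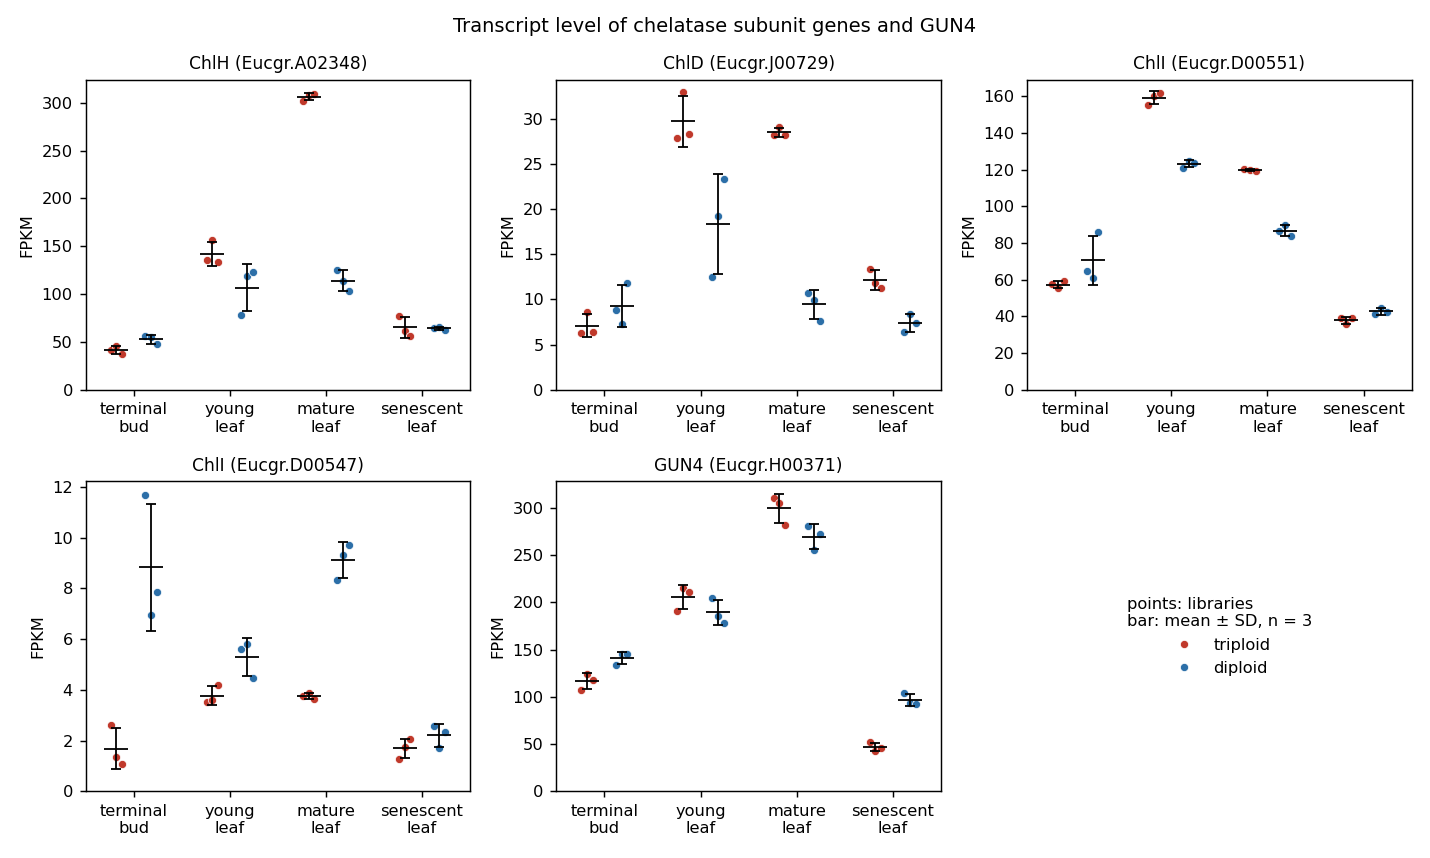
Transcript level in FPKM (vertical axes, each from 0) of the 5 genes at the 4 stages, triploid libraries left (red) and diploid libraries right (blue). Points are libraries and bars are the mean ± SD of 3; *ChlH* stands at 306 FPKM in triploid mature leaves against 114 FPKM in diploid ones, and Eucgr.D00547 is the gene with higher diploid means at every stage.

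In *ChlH*, the triploid was far above the diploid in mature leaves and close to it in senescent leaves. Terminal buds had 41.9, 46.1 and 37.9 FPKM in the triploid, against 56.1, 55.0 and 47.5 FPKM in the diploid. Young leaves had 135, 157 and 134 FPKM in the triploid, against 78.4, 119 and 123 FPKM in the diploid. At neither stage did the ranges of triploid and diploid overlap, with the triploid below in buds and above in young leaves. Mature leaves had 302, 308 and 309 FPKM in the triploid, against 125, 113 and 103 FPKM in the diploid. Senescent leaves had 77.6, 61.5 and 56.4 FPKM in the triploid, against 64.5, 65.7 and 62.8 FPKM in the diploid. The diploid values of senescent leaves fell inside the triploid range. The mature leaf difference was 1.43 ± 0.14 on the log2(FPKM + 1) scale (SE), a fold of 2.69, with an adjusted p of 1.7e-08 by limma (1.07 when scaled). In young leaves it was 0.43 ± 0.14 (adjusted p = 0.026), in terminal buds −0.33 ± 0.14 (adjusted p = 0.054). The senescent leaf value was 0.0059 ± 0.14 (adjusted p = 0.99) and turned to −0.32 when scaled (adjusted p = 0.051). The young leaf call was lost without diploid library 1, which had the lowest value (0.23, adjusted p = 0.19), without triploid library 2, which had the highest (0.36, adjusted p = 0.12), and with edgeR on the counts (0.40, adjusted p = 0.063). The terminal bud value passed the threshold without the 3 libraries that stood apart (−0.40, adjusted p = 0.0058), but not when scaled (−0.13, adjusted p = 0.45).

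*ChlD*, the subunit that joins the other two, was higher in the triploid at all 3 leaf stages. Terminal buds had 6.26, 8.56 and 6.40 FPKM in the triploid, against 8.82, 7.25 and 11.9 FPKM in the diploid. Young leaves had 27.9, 33.0 and 28.3 FPKM in the triploid, against 12.4, 19.3 and 23.3 FPKM in the diploid. The bud ranges overlapped and the young leaf ranges did not. Mature leaves had 28.3, 29.1 and 28.2 FPKM in the triploid, against 10.7, 9.99 and 7.66 FPKM in the diploid. Senescent leaves had 13.4, 11.8 and 11.2 FPKM in the triploid, against 6.39, 8.36 and 7.35 FPKM in the diploid. All triploid libraries lay above all diploid ones at both late stages. *ChlD* rose by 0.71 ± 0.18 on the log2 scale in young leaves (adjusted p = 0.0071), by 1.51 ± 0.18 in mature leaves (a fold of 2.85, adjusted p = 3.6e-07) and by 0.65 ± 0.18 in senescent leaves (adjusted p = 0.0037). The terminal bud value was −0.34 ± 0.18 (adjusted p = 0.13). The senescent leaf call was lost when scaled (0.36, adjusted p = 0.051) and with edgeR (0.28, adjusted p = 0.39) and DESeq2 (0.35, adjusted p = 0.28), which have counts of 1 diploid library there. The young leaf call was lost without diploid library 1 (0.46, adjusted p = 0.060).

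The *ChlI* gene Eucgr.D00551 gave most of the *ChlI* transcript in every library, and its ploidy differences were smaller than those of *ChlH* and *ChlD* in mature leaves. Terminal buds had 57.6, 55.2 and 59.0 FPKM in the triploid, against 64.7, 60.7 and 86.0 FPKM in the diploid. Young leaves had 155, 160 and 162 FPKM in the triploid, against 121, 125 and 124 FPKM in the diploid. Diploid terminal bud library 3, one of those that stood apart, had the highest bud value. Mature leaves had 120.4, 119.5 and 119.5 FPKM in the triploid, against 86.4, 89.7 and 83.8 FPKM in the diploid. Senescent leaves had 39.1, 35.7 and 38.9 FPKM in the triploid, against 41.1, 44.6 and 42.3 FPKM in the diploid. The ranges were separate at every stage, with the triploid above in young and mature leaves and below in buds and senescent leaves. The log2 difference was 0.37 ± 0.09 in young leaves (adjusted p = 0.0050; 0.35 when scaled), 0.46 ± 0.09 in mature leaves (adjusted p = 0.00012) and −0.28 ± 0.09 in terminal buds (adjusted p = 0.014). Relative to the typical gene the mature leaf call was lost (0.11, adjusted p = 0.17), as was the bud call (−0.08, adjusted p = 0.35). The bud call was also lost without diploid library 3 (−0.13, adjusted p = 0.092) and without triploid library 2 (−0.25, adjusted p = 0.051). In senescent leaves the value was −0.17 ± 0.09 (adjusted p = 0.12), which was called when scaled (−0.49, adjusted p = 4.6e-06) and when diploid terminal bud library 3 was left out of the fit (−0.17, adjusted p = 0.012).

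The other *ChlI* gene, Eucgr.D00547, was lower in the triploid in terminal buds and mature leaves. In mature leaves this was opposite to Eucgr.D00551, and in buds both genes were lower. The calls of Eucgr.D00551 at both stages were lost with edgeR, with DESeq2 and when scaled (0.11 in mature leaves, −0.08 in buds). For Eucgr.D00547, terminal buds had 2.60, 1.36 and 1.08 FPKM in the triploid, against 11.7, 6.95 and 7.86 FPKM in the diploid. Mature leaves had 3.76, 3.88 and 3.65 FPKM in the triploid, against 8.34, 9.32 and 9.70 FPKM in the diploid. At both stages every diploid library was above every triploid one. Young leaves had 3.51, 3.60 and 4.21 FPKM in the triploid, against 5.62, 5.82 and 4.45 FPKM in the diploid, and senescent leaves had 1.3, 1.74 and 2.06 FPKM in the triploid, against 2.58, 1.71 and 2.36 FPKM in the diploid. The young leaf ranges were separate by a small margin and the senescent ranges overlapped. Eucgr.D00547 fell by 1.88 ± 0.18 on the log2 scale in terminal buds (adjusted p = 3.9e-08) and by 1.09 ± 0.18 in mature leaves (adjusted p = 2.6e-05), and both calls held when scaled (−1.75 and −1.40). The pseudocount of 1 FPKM shrinks the differences of a gene this low. In young leaves the value was −0.40 ± 0.18 (adjusted p = 0.13). The senescent leaf value of −0.25 ± 0.18 was not called (adjusted p = 0.25) except when scaled (−0.47, adjusted p = 0.043). Beside the bud difference, 15 genes annotated as sieve element occlusion proteins of the phloem summed to 452 to 457 FPKM in triploid buds (1 of the 15 at 0), against 168 to 237 FPKM in diploid buds (1 at 0). The triploid sum of these phloem genes was also higher at the leaf stages. It was 151 to 177 FPKM in young leaves, against 55.4 to 79.1 FPKM in the diploid. Mature leaves had 22.6 to 28.4 FPKM, against 13.7 to 16.0 FPKM in the diploid, and senescent leaves 8.44 to 10.5 FPKM, against 5.05 to 6.86 FPKM. The list of xylem cysteine proteinases matched 0 genes. The part of tissue make-up in these results was not tested, and in bulk tissue fewer cells of a type cannot be told apart from less RNA per cell.

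*GUN4* was far lower in the triploid in senescent leaves, with smaller differences at the other stages. Terminal buds had 107, 124 and 118 FPKM in the triploid, against 134, 145 and 145 FPKM in the diploid. Young leaves had 191, 215 and 210.4 FPKM in the triploid, against 204, 185 and 179 FPKM in the diploid. The triploid lay below in buds, and the young leaf ranges overlapped. Mature leaves had 310.1, 305 and 282 FPKM in the triploid, against 280.5, 255 and 272 FPKM in the diploid. Senescent leaves had 51.9, 43.1 and 45.7 FPKM in the triploid, against 103.6, 93.4 and 92.9 FPKM in the diploid. In mature leaves the triploid range lay just above the diploid one, and in senescent leaves every triploid library was far under every diploid one. *GUN4* fell by 1.03 ± 0.08 on the log2 scale there, a fold of 0.490 (adjusted p = 1.1e-09; −1.35 when scaled). The terminal bud value of −0.28 ± 0.08 was called (adjusted p = 0.0094), but not when scaled (−0.08, adjusted p = 0.53) or without triploid library 1 (−0.22, adjusted p = 0.062). Young leaves had 0.12 ± 0.08 (adjusted p = 0.34). Mature leaves had 0.15 ± 0.08 (adjusted p = 0.12), a direction that flipped to −0.20 when scaled (adjusted p = 0.076) and to −0.26 with DESeq2 (adjusted p = 0.024). Beside the senescent leaf difference, 8 genes annotated as the senescence protease SAG12 (7 of them detected) summed to 5198 to 5481 FPKM in the triploid, against 27044 to 30690 FPKM in the diploid, and the 2 STAY-GREEN genes to 496 to 579 FPKM in the triploid, against 975 to 1057 FPKM in the diploid. The 17 genes of light-harvesting proteins and the RuBisCO small subunit summed to 2732 to 3017 FPKM in the triploid, against 4481 to 4872 FPKM in the diploid. The 3 genes of pheophytinase and pheophorbide a oxygenase differed less there, at 622 to 668 FPKM in the triploid, against 715 to 756 FPKM in the diploid. In mature leaves the SAG12 genes summed to 176 to 195 FPKM in the triploid, against 1270 to 1421 FPKM in the diploid. The STAY-GREEN genes had 75.7 to 82.6 FPKM in triploid mature leaves, against 89.7 to 93.9 FPKM in diploid ones. Whether the leaves of either stage stood at the same point of senescence was not tested.

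**Figure D2:**
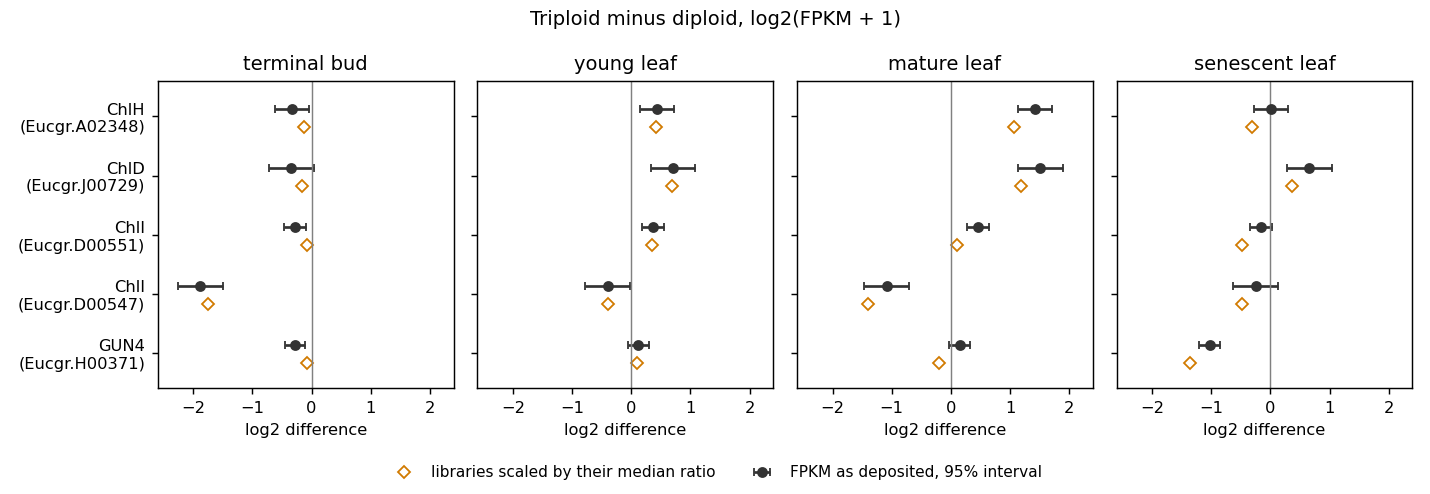
Triploid minus diploid on the log2(FPKM + 1) scale (horizontal axis, 0 marked) for the 5 genes at the 4 stages. Filled circles with bars are the limma difference and its 95% interval from the deposited FPKM, open diamonds the same difference after scaling by the median ratios; *ChlH* and *ChlD* stand near 1.43 and 1.51 in mature leaves, Eucgr.D00547 at −1.88 in terminal buds and *GUN4* at −1.03 in senescent leaves.

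Counted together, 3 of the 5 genes differed between triploid and diploid in terminal buds, all lower (48.8% of all genes tested differed, 34.9% lower and 14.0% higher). In young leaves 3 differed, all higher (23.4% of all genes, 11.4% higher). In mature leaves 4 differed, 3 higher and 1 lower (64.9% of all genes, 42.4% higher and 22.6% lower), and in senescent leaves 2, 1 higher and 1 lower (60.1% of all genes, 40.1% higher and the rest lower). With so large a share of all genes called, the counts in buds, mature and senescent leaves are near the background and say little of these genes. The young leaf count dropped to 1 without diploid library 1. In terminal buds only Eucgr.D00547 was called when scaled.

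Along leaf development the 5 genes peaked at different stages. *ChlH* and *GUN4* had their highest means in mature leaves in both ploidies, and Eucgr.D00551 in young leaves in both. *ChlD* was high in young and mature leaves of the triploid, whose ranges overlapped, and highest in young leaves of the diploid. Eucgr.D00547 had its lowest levels in buds and senescent leaves of the triploid, while in the diploid buds and mature leaves were both high, with overlapping ranges. In the order of the 8 group means, *ChlH* ran between triploid terminal buds (41.9 ± 4.10 FPKM) and triploid mature leaves. Its neighbours with overlapping ranges were the senescent leaves of both ploidies (65.2 ± 11 FPKM in the triploid and 64.3 ± 1.45 FPKM in the diploid) and the mature and young leaves of the diploid (114 ± 11 and 107 ± 24.6 FPKM).

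Between terminal bud and young leaf all 5 genes changed in the triploid, all upward (68.8% of all genes tested changed, 45.0% upward). *ChlH* rose by 1.74 ± 0.14 on the log2 scale, *ChlD* by 1.94 ± 0.18, Eucgr.D00551 by 1.46 ± 0.09, Eucgr.D00547 by 0.87 ± 0.18 and *GUN4* by 0.81 ± 0.08 (adjusted p at most 0.00028). In the diploid all 5 changed too, 4 upward (60.1% of all genes, 33.4% upward and 26.6% downward). Its rises were 0.98 in *ChlH*, 0.89 in *ChlD*, 0.81 in Eucgr.D00551 and 0.42 in *GUN4* (adjusted p at most 0.00027), and Eucgr.D00547 fell by 0.62 ± 0.18 (adjusted p = 0.0064). The fall of Eucgr.D00547 was not called without diploid terminal bud library 1, the highest of its group (−0.42, adjusted p = 0.063), or without the 3 libraries that stood apart (−0.56, adjusted p = 0.098). The median ratio rose over this step by 0.37 in the triploid and 0.15 in the diploid, and all 10 changes kept their direction and call when scaled. The step differed between the ploidies in all 5 genes, always higher in the triploid (26.0% of all genes differed, 19.4% higher and 6.57% lower). The interaction, the triploid step minus the diploid step, was 0.76 ± 0.19 in *ChlH*, 1.05 ± 0.26 in *ChlD*, 0.65 ± 0.13 in Eucgr.D00551, 1.49 ± 0.26 in Eucgr.D00547 and 0.40 ± 0.12 in *GUN4* (adjusted p 0.00027 to 0.018). For *GUN4* it was not called when scaled (0.19, adjusted p = 0.37), without triploid terminal bud library 1 (0.34, adjusted p = 0.058), with edgeR (0.20, adjusted p = 0.40) or with DESeq2 (0.14, adjusted p = 0.57). That of *ChlH* was lost with edgeR (0.57, adjusted p = 0.060) and with DESeq2 (0.52, adjusted p = 0.057), which left 3 of the 5 called.

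Between young and mature leaf *GUN4* rose in both ploidies, *ChlH* rose in the triploid, and the pair of *ChlI* genes did not move together. In the triploid 3 of the 5 genes changed (69.7% of all genes, 26.9% upward and 42.8% downward): *ChlH* rose by 1.11 ± 0.14 (adjusted p = 2.4e-07), *GUN4* rose by 0.54 ± 0.08 (adjusted p = 6.4e-06) and Eucgr.D00551 fell by 0.41 ± 0.09 (adjusted p = 0.00039). *ChlD* (−0.05, adjusted p = 0.81; 0.11 when scaled) and Eucgr.D00547 (−0.00050, adjusted p = 1.0; 0.13 when scaled) were not called. In the diploid 4 of the 5 changed (76.6% of all genes, 21.0% upward and 55.6% downward). *ChlD* fell by 0.86 ± 0.18 (adjusted p = 0.00021; −0.38 when scaled), *GUN4* rose by 0.51 ± 0.08 (adjusted p = 1.3e-05) and Eucgr.D00547 rose by 0.69 ± 0.18 (adjusted p = 0.0019; 0.57 without the 3 libraries that stood apart, adjusted p = 0.062). Eucgr.D00551 fell by 0.50 ± 0.09 (adjusted p = 3.3e-05), while the median ratio of all genes fell by 0.52, and its direction flipped to 0.01 when scaled (adjusted p = 0.93). *ChlH* had 0.12 ± 0.14 in the diploid (adjusted p = 0.45), which was called when scaled (0.63, adjusted p = 0.00034) and was −0.09 without diploid young leaf library 1 (adjusted p = 0.49). The step differed between ploidies in 3 of the 5 genes (51.1% of all genes, 34.9% higher and 16.3% lower): by 0.99 ± 0.19 in *ChlH* (adjusted p = 0.00029), by 0.80 ± 0.26 in *ChlD* (adjusted p = 0.013) and by −0.69 ± 0.26 in Eucgr.D00547 (adjusted p = 0.031). When scaled, that of *ChlD* was not called (0.49, adjusted p = 0.072). That of Eucgr.D00547 was lost without any 1 of 5 libraries, triploid young leaf 3 (−0.63), triploid mature leaf 3 (−0.67), diploid young leaf 3 (−0.59) and diploid mature leaf 2 (−0.67) and 3 (−0.65), without the 3 libraries that stood apart (−0.57, adjusted p = 0.15), and with a pseudocount of 0.1 FPKM (−0.78, adjusted p = 0.077). Eucgr.D00551 (0.10, adjusted p = 0.55) and *GUN4* (0.03, adjusted p = 0.83) were not called, and both flipped when scaled, to −0.24 (adjusted p = 0.049) and −0.31 (adjusted p = 0.076).

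Into senescence all 5 genes fell in the triploid (61.1% of all genes changed, 32.1% downward). The log2 change was −2.65 ± 0.08 in *GUN4*, −2.23 ± 0.14 in *ChlH*, −1.64 ± 0.09 in Eucgr.D00551, −1.17 ± 0.18 in *ChlD* and −0.83 ± 0.18 in Eucgr.D00547 (adjusted p at most 0.00048). In the diploid 4 fell (57.7% of all genes changed, 25.3% upward and 32.4% downward), with a change of −1.66 ± 0.18 in Eucgr.D00547, −1.47 ± 0.08 in *GUN4*, −1.01 ± 0.09 in Eucgr.D00551 and −0.81 ± 0.14 in *ChlH* (adjusted p at most 2.6e-05). Diploid *ChlD* had −0.32 ± 0.18 (adjusted p = 0.15; −0.38 when scaled, adjusted p = 0.038). The order thus differed on the log2(FPKM + 1) scale: Eucgr.D00547 had the smallest fall of the 5 genes in the triploid and the largest in the diploid. The pseudocount of 1 FPKM shrinks the changes of a gene this low, and the order was not tested. Triploid means went from 3.76 to 1.70 FPKM in Eucgr.D00547 and from 28.5 to 12.1 FPKM in *ChlD*. The step differed between ploidies in all 5 genes (25.7% of all genes, 13.6% higher and 12.1% lower). It was steeper in the triploid by −1.42 ± 0.19 in *ChlH* (adjusted p = 1.0e-05), −1.18 ± 0.12 in *GUN4* (adjusted p = 2.2e-07), −0.86 ± 0.26 in *ChlD* (adjusted p = 0.017) and −0.63 ± 0.13 in Eucgr.D00551 (adjusted p = 0.00077), and flatter by 0.83 ± 0.26 in Eucgr.D00547 (adjusted p = 0.021). All 5 interactions were also called when scaled. That of *ChlD* was lost without diploid mature leaf library 3 (−0.73, adjusted p = 0.057) and with only the libraries with counts (−0.86, adjusted p = 0.077), and that of Eucgr.D00547 without triploid senescent leaf library 3 (0.74, adjusted p = 0.062), without diploid senescent leaf library 2 (0.72, adjusted p = 0.063), with a pseudocount of 0.1 FPKM (0.89, adjusted p = 0.078), with only the libraries with counts (0.76, adjusted p = 0.12), and with edgeR (0.68, adjusted p = 0.44) and DESeq2 (0.84, adjusted p = 0.27).

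The balance of the subunits was followed as ratios of FPKM within each library, with 0.1 FPKM added to both sides, since a ratio within a library does not change with the scaling of that library. Ploidy was tested by exact permutation of the ploidy labels within each stage (160000 arrangements), two-sided on the mean difference over the 4 stages and one-sided on the root mean square difference, which also counts stages that differ in opposite directions. Steps between stages were tested two-sided over both ploidies by 400 arrangements, with 0.0050 the smallest p they can give. At a single stage, 3 libraries against 3 cannot give a two-sided exact p below 0.10, so stages are described. The p-values were adjusted over all 20 ratio tests.

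*ChlH* over *ChlD* was lower in the triploid at the 3 leaf stages. The ratio was 6.61, 5.33 and 5.84 in triploid buds, against 6.30, 7.49 and 3.98 in diploid buds, and 4.83, 4.74 and 4.72 in triploid young leaves, against 6.25, 6.13 and 5.26 in diploid ones. It was 10.7, 10.6 and 10.9 in triploid mature leaves, against 11.6, 11.2 and 13.3 in diploid ones, and 5.76, 5.17 and 4.98 in triploid senescent leaves, against 9.96, 7.77 and 8.44 in diploid ones. The bud ranges overlapped and the leaf ranges did not. Over the 4 stages the triploid was lower by a mean log2 of −0.28 (exact permutation p = 0.0107, adjusted p = 0.0164). This call was lost without diploid terminal bud library 2 (−0.23, adjusted p = 0.0533). The root mean square difference of 0.40 was at the edge (adjusted p = 0.0489) and lost its call without any 1 of 15 of the 24 libraries (adjusted p up to 0.0689). Mature leaves stood out in both ploidies: the ratio rose by a mean log2 of 1.10 between young and mature leaf and fell by 0.74 between mature and senescent leaf (exact permutation p = 0.0050, adjusted p = 0.00909 each).

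Summed *ChlI* over *ChlD* was lower in the triploid in mature and senescent leaves. It was 4.38, 4.23 and 4.35 in triploid mature leaves, against 8.77, 9.82 and 12.1 in diploid ones. It was 3.01, 3.15 and 3.62 in triploid senescent leaves, against 6.75, 5.48 and 6.0 in diploid ones. The triploid had less *ChlI* per *ChlD* in every library of these stages. In terminal buds it was 9.48, 6.54 and 9.26 in the triploid, against 8.58, 9.22 and 7.86 in the diploid, and in young leaves 5.67, 4.96 and 5.85, against 10.1, 6.73 and 5.48 in the diploid. These ranges overlapped. The mean log2 difference over the stages was −0.64 (exact permutation p = 0.000588, adjusted p = 0.00392), and the root mean square difference 0.79 (adjusted p = 0.00909). The ratio fell by a mean log2 of 0.58 into senescence (adjusted p = 0.00909), and the steps between bud and young leaf (−0.42, adjusted p = 0.0562) and between young and mature leaf (0.08, adjusted p = 0.715) were not called. The first was called without triploid terminal bud library 2 (−0.51, adjusted p = 0.0467) and without diploid young leaf library 1 (−0.55, adjusted p = 0.00909). The step between young and mature leaf was made of −0.34 in the triploid, with separate ranges, and 0.49 in the diploid, with overlapping ranges. This difference of steps was not tested.

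**Figure D3:**
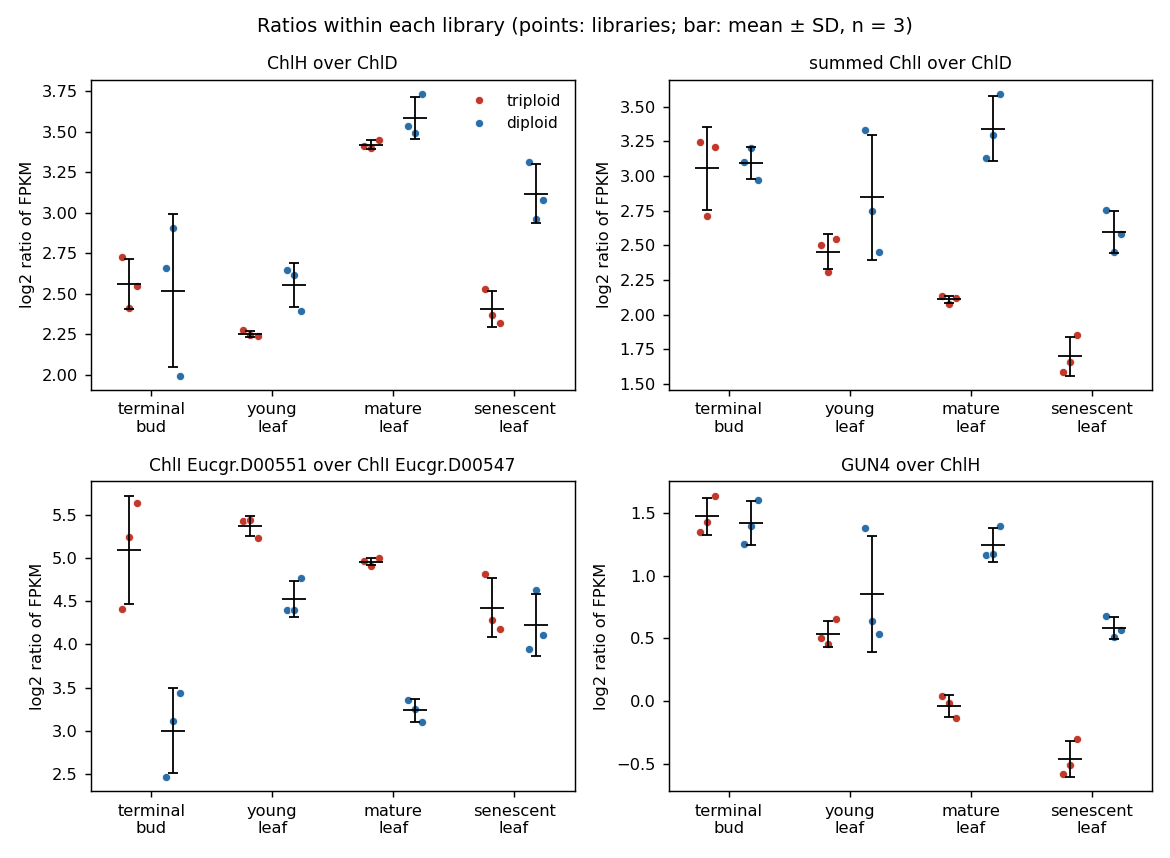
Log2 ratios of FPKM within each library (vertical axes, each on its own range) for *ChlH* over *ChlD*, summed *ChlI* over *ChlD*, *ChlI* Eucgr.D00551 over Eucgr.D00547 and *GUN4* over *ChlH*, at the 4 stages, triploid left (red) and diploid right (blue). Points are libraries and bars the mean ± SD of 3; in mature leaves the triploid mean of *GUN4* over *ChlH* is −0.04 against 1.25 in the diploid, and that of the *ChlI* genes 4.96 against 3.24.

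The balance of the *ChlI* pair had the largest mean ploidy difference of the 4 ratios. Eucgr.D00551 over Eucgr.D00547 was 21.3, 37.8 and 49.9 in triploid buds, against 5.50, 8.64 and 10.8 in diploid buds. It was 43.0, 43.4 and 37.6 in triploid young leaves, against 21.2, 21.1 and 27.2 in diploid ones, and 31.2, 30.1 and 31.9 in triploid mature leaves, against 10.2, 9.53 and 8.56 in diploid ones. All triploid values at these stages were above all diploid ones. Senescent leaves had 28.1, 19.4 and 18.1 in the triploid, against 15.4, 24.7 and 17.3 in the diploid, which overlapped. The mean log2 difference over the stages was 1.21 (exact permutation p = 6.25e-05, adjusted p = 0.00125) and the root mean square difference 1.42 (adjusted p = 0.00392). As a share of summed *ChlI* FPKM, Eucgr.D00547 was 2.85 ± 1.32% in triploid buds, against 11.3 ± 3.57% in diploid buds, and 3.04 ± 0.0918% in triploid mature leaves, against 9.53 ± 0.793% in diploid ones. In young leaves the share was 2.31 ± 0.192% in the triploid and 4.12 ± 0.563% in the diploid, and in senescent leaves 4.29 ± 0.959% in the triploid and 4.96 ± 1.14% in the diploid. The diploid thus had a high share at the stages of bud and mature leaf and a low one in between, while the triploid share reached at most 5.02% in any library. Over both ploidies the ratio fell by a mean log2 of 0.85 between young and mature leaf (adjusted p = 0.00909). The step between bud and young leaf (0.89, adjusted p = 0.0533) was called with a pseudocount of 1 FPKM (1.01, adjusted p = 0.00833), without triploid terminal bud library 2 (0.93, adjusted p = 0.0467) and without triploid terminal bud library 3 (1.03, adjusted p = 0.0154). Into senescence the mean was 0.23 (exact permutation, adjusted p = 0.528). It was made of −0.53 in the triploid and 0.99 in the diploid, each with separate ranges. This difference of steps was not tested.

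*GUN4* over *ChlH* fell along development in the triploid and ended below the diploid. In buds it was 2.55, 2.69 and 3.12 in the triploid, against 2.39, 2.64 and 3.05 in the diploid, and in young leaves 1.41, 1.37 and 1.57, against 2.61, 1.56 and 1.45 in the diploid. In mature leaves it was 1.03, 0.991 and 0.912 in the triploid, against 2.24, 2.25 and 2.64 in the diploid, and in senescent leaves 0.669, 0.701 and 0.810, against 1.60, 1.42 and 1.48 in the diploid. The ranges overlapped at both early stages and were separate at both late ones. The ratio was lower in mature leaves beside higher triploid *ChlH*, and in senescent leaves beside lower triploid *GUN4*. Over the stages the mean log2 difference was −0.65 (exact permutation p = 0.00131, adjusted p = 0.00656) and the root mean square difference 0.84 (adjusted p = 0.00909). The ratio fell by a mean log2 of 0.75 between bud and young leaf (adjusted p = 0.0164) and by 0.55 into senescence (adjusted p = 0.00909). Between young and mature leaf the mean over ploidies was −0.09 (adjusted p = 0.715), made of −0.57 in the triploid and 0.39 in the diploid. This difference of steps was not tested, and the mean turned to 0.043 without diploid young leaf library 1 (adjusted p = 0.830).

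**Figure D4:**
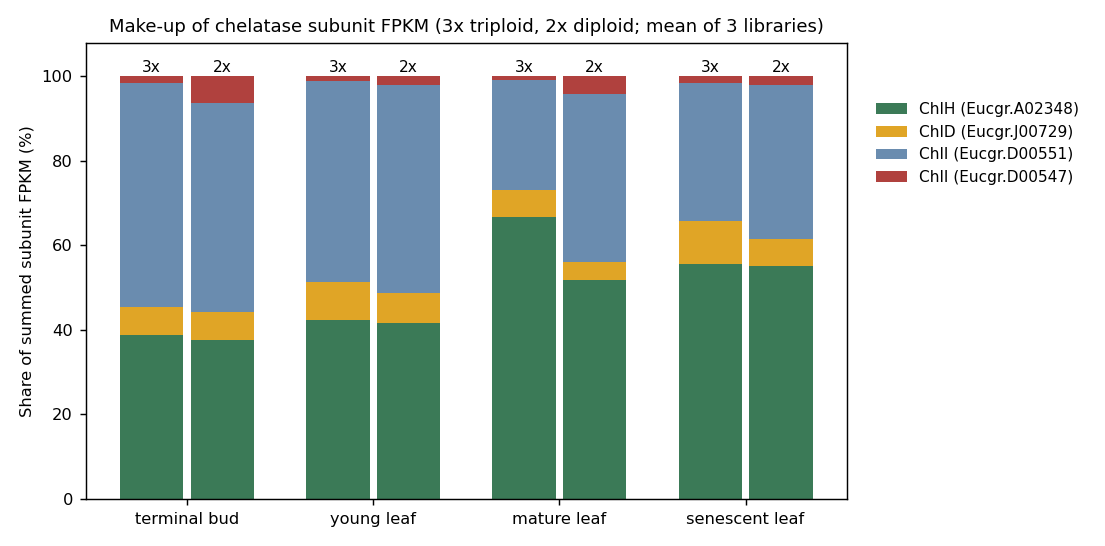
Share of the summed FPKM of the 4 subunit genes (vertical axis in percent, stacked to 100) held by *ChlH*, *ChlD* and the 2 *ChlI* genes at the 4 stages, triploid (3x) left and diploid (2x) right, as the mean of 3 libraries. *ChlH* holds 66.8% in triploid mature leaves against 51.9% in diploid ones, and Eucgr.D00547 is a thin band, widest in diploid terminal buds (6.25%).

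As shares of the summed FPKM of the 4 subunit genes, *ChlH* took 66.8 ± 0.348% in triploid mature leaves, against 51.9 ± 2.06% in diploid ones. Eucgr.D00551 took 26.1 ± 0.320% there in the triploid, against 39.6 ± 1.88% in the diploid. *ChlD* took 10.4 ± 0.245% in triploid senescent leaves, against 6.31 ± 0.693% in diploid ones. In buds and young leaves the shares of *ChlH* lay within 1 SD of each other. *ChlH* took 38.8 ± 2.57% in triploid buds and 37.7 ± 5.91% in diploid buds, and 42.4 ± 1.81% in triploid young leaves and 41.7 ± 4.90% in diploid ones. These shares depend on the gene lengths behind FPKM, and the differences between groups were not tested as shares.

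The other genes of the pathway were 20 genes matched by their annotated names, all of them tested. In mature leaves 17 were higher in the triploid and 0 lower, with a median log2 difference of 0.84 against 0.20 over all genes (42.4% of all genes were higher), and when scaled 13 were higher and 1 lower, with a median of 0.51. In senescent leaves 13 were higher and 1 lower (40.1% of all genes were higher), with a median of 0.46 against 0.17 over all genes, and when scaled 8 were higher and 4 lower. Young leaves had 8 higher and 2 lower (11.4% of all genes were higher and 11.9% lower), and 9 higher and 3 lower when scaled. In terminal buds 2 were higher and 7 lower (14.0% of all genes were higher and 34.9% lower), and the split became 6 higher and 5 lower when scaled. The shares of all genes are from the fit without scaling, so the scaled counts have no background beside them. The scaled medians were −0.08, 0.31, 0.51 and 0.16 from terminal bud to senescent leaf, against −0.03, 0.00089, −0.03 and −0.0038 over all genes. The mature leaf differences of *ChlH* and *ChlD* lay above those of 19 of these 20 genes.

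**Figure D5:**
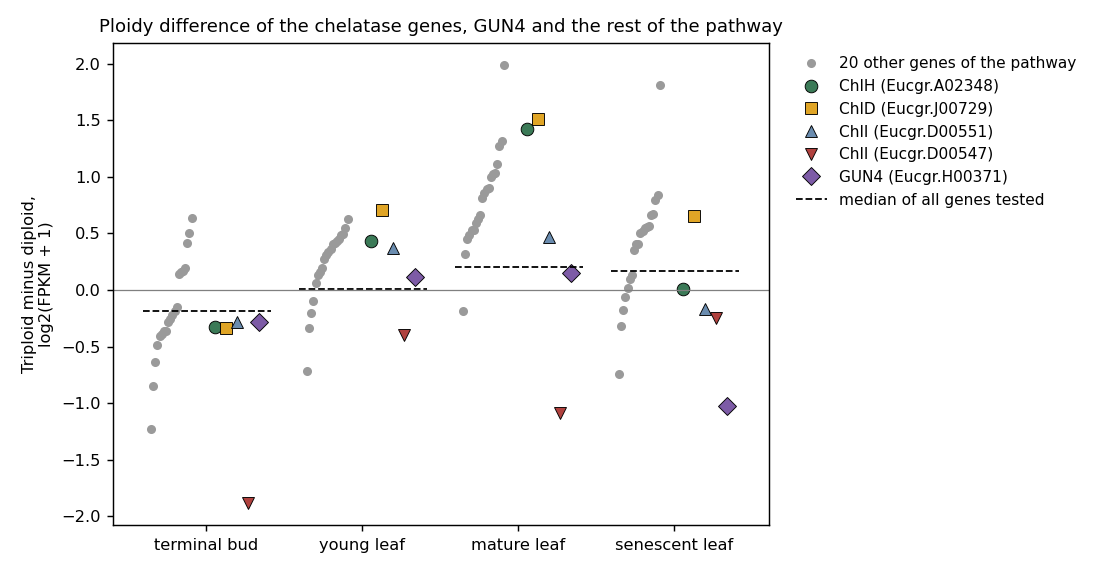
Triploid minus diploid on the log2(FPKM + 1) scale (vertical axis) at the 4 stages for 20 other genes of tetrapyrrole and chlorophyll synthesis (grey), *ChlH*, *ChlD*, the 2 *ChlI* genes and *GUN4* (coloured). The dashed line is the median of all genes tested; in mature leaves *ChlH* (1.43) and *ChlD* (1.51) lie near the top of the grey genes and Eucgr.D00547 (−1.09) below all of them.

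At the branch point, ferrochelatase makes heme from the substrate of the chelatase. The ferrochelatase gene Eucgr.C00637 had 29.0 ± 1.24 FPKM in triploid mature leaves, against 18.4 ± 1.07 FPKM in diploid ones (log2 difference 0.63 ± 0.08, adjusted p = 1.3e-06; 0.28 when scaled, adjusted p = 0.00071), and Eucgr.H05051 had 24.9 ± 0.751 FPKM, against 12.1 ± 1.48 FPKM in the diploid (1.0 ± 0.15, adjusted p = 7.1e-06; 0.66 when scaled). In senescent leaves Eucgr.C00637 was also higher in the triploid (0.67, adjusted p = 5.7e-07; 0.35 when scaled, adjusted p = 9.1e-05), while the call of Eucgr.H05051 (0.40, adjusted p = 0.026) was lost when scaled (0.11, adjusted p = 0.49). At the early stages, scaled Eucgr.C00637 was called higher in triploid buds (0.61, limma adjusted p = 2.0e-07) and lower in triploid young leaves (−0.21, adjusted p = 0.022). Scaled Eucgr.H05051 was called at neither of them. Sirohydrochlorin ferrochelatase (Eucgr.J02232), of the siroheme branch, was lower in triploid buds (−1.23 ± 0.15, adjusted p = 1.0e-06) and young leaves (−0.72, adjusted p = 0.0014) and higher in triploid senescent leaves (0.57, adjusted p = 0.0026), and these 3 calls held when scaled. In mature leaves it was called lower only when scaled (−0.45, adjusted p = 0.0094). Directly after the chelatase, magnesium protoporphyrin IX methyltransferase (Eucgr.G02043) had 105 ± 27.5 FPKM in triploid mature leaves, against 72.4 ± 17.8 FPKM in diploid ones (0.53 ± 0.26, adjusted p = 0.083). The cyclase that follows (Eucgr.A02177) had 882 ± 102 FPKM in the triploid, against 564 ± 131 FPKM in the diploid (0.67 ± 0.32, adjusted p = 0.073). Neither was called there. When scaled, limma called Eucgr.G02043 higher in triploid buds (0.83, adjusted p = 0.011) and lower in triploid senescent leaves (−0.64, adjusted p = 0.036). Its young leaf value was not called when scaled (0.34, adjusted p = 0.37), and Eucgr.A02177 was called at no stage when scaled. No gene of the table matched protoporphyrinogen oxidase, the enzyme before the chelatase, by name.

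Of the 20 genes, the largest difference in mature leaves was in a protochlorophyllide reductase (Eucgr.F01098), the enzyme of the light-dependent step, with 183 ± 7.99 FPKM in the triploid, against 45.3 ± 3.90 FPKM in the diploid (1.99 ± 0.12, adjusted p = 1.1e-11). Coproporphyrinogen oxidase (Eucgr.K01354; 1.32 ± 0.09, adjusted p = 5.5e-11) and aminolevulinic acid dehydratase (Eucgr.F03796; 1.28 ± 0.18, adjusted p = 2.0e-06), both of the steps shared with heme, came next. The same reductase led in senescent leaves (1.81 ± 0.12, adjusted p = 2.2e-11). There divinyl chlorophyllide 8-vinyl-reductase (Eucgr.H03771) was, like *GUN4*, lower in the triploid (−0.74 ± 0.11, adjusted p = 3.8e-06), the only one of the 20 that was called lower before scaling. Eucgr.A01801, also annotated as a protochlorophyllide reductase, had 151 ± 3.02 FPKM in triploid mature leaves, against 121 ± 4.37 FPKM in diploid ones. When scaled this difference was −0.04 (limma adjusted p = 0.71). In senescent leaves Eucgr.A01801 had 36.7 ± 1.75 FPKM in the triploid, against 36.4 ± 2.63 FPKM in the diploid. It was called lower there when scaled (−0.30, adjusted p = 0.0023).

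The regulators *EgrGLK3* (Eucgr.A01857) and *EgrGLK37* (Eucgr.K01056), annotated as GLK1 and GLK2, which turn on genes of chlorophyll synthesis in *Arabidopsis*, were higher in triploid mature leaves, a call that held only for *EgrGLK3* when scaled. *EgrGLK3* had 98.2 ± 3.11 FPKM in the triploid, against 55.4 ± 3.25 FPKM in the diploid (0.82 ± 0.19, adjusted p = 0.00071; 0.46 when scaled, adjusted p = 0.016), and *EgrGLK37* (Eucgr.K01056) 49.1 ± 2.15 FPKM, against 33.1 ± 1.62 FPKM in the diploid (0.55 ± 0.13, adjusted p = 0.00097; 0.21 when scaled, adjusted p = 0.099). In senescent leaves neither was called (0.050, adjusted p = 0.86, and 0.27, adjusted p = 0.083), and both values turned below 0 when scaled (−0.27 and −0.024). *EgrGLK37* was lower in triploid buds (−0.57 ± 0.13, adjusted p = 0.0012), also when scaled (−0.38, adjusted p = 0.0062), while *EgrGLK3* was not called there (−0.22, adjusted p = 0.35). In young leaves neither was called (0.32 in *EgrGLK3*, 0.36 in *EgrGLK37*), except *EgrGLK37* when scaled (0.35, adjusted p = 0.023).

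Across the 24 libraries the 5 genes were alike to different degrees, given here as a description of log2(FPKM + 1), since libraries of a group share their stage and ploidy. Pearson's r was 0.84 between Eucgr.D00551 and *GUN4*, 0.83 between *ChlH* and *ChlD*, 0.77 between *ChlD* and Eucgr.D00551, 0.70 between *ChlH* and Eucgr.D00551 and 0.69 between *ChlH* and *GUN4*. For Eucgr.D00547 r was 0.07 to *ChlD*, 0.24 to *ChlH*, 0.47 to its paralog and 0.61 to *GUN4*. Between *ChlD* and *GUN4* r was 0.47, the lowest value of *GUN4*. Ranked among all genes tested by likeness to *ChlH*, *ChlD* came at place 301. The genes most like *ChlH* were a potassium channel AKT2/3 gene (Eucgr.G00560, r = 0.97), Eucgr.G02735 and Eucgr.K02827 (r = 0.97 each), the last 2 without a described function. For *ChlD* they were the protease Do-like 2 gene (Eucgr.L02072, r = 0.98), the ribonuclease E/G-like gene (Eucgr.A01367, r = 0.97) and Eucgr.B00129 (r = 0.97). For Eucgr.D00551 they were a ylmG homolog (Eucgr.C00730, r = 0.99), Eucgr.F01149 (r = 0.99) and a psbP domain gene (Eucgr.G02593, r = 0.98), and for *GUN4* the thylakoid protein gene CURVATURE THYLAKOID 1A (Eucgr.D02339, r = 0.98), Eucgr.D02642 (r = 0.98) and a chlorophyll a-b binding protein gene (Eucgr.F01077, r = 0.97). Those most like Eucgr.D00547 (Eucgr.E03869, r = 0.91, Eucgr.G02318 and Eucgr.H00878, r = 0.90 each) have no described function.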

How the data were processed

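Total RNA of 24 leaf and bud samples was sequenced as paired-end libraries, described as poly(A)-selected in the labels and as stranded total RNA in the study's methods. Per the submitters' processing notes the authors used HISAT2 2.0, StringTie 1.3.0 and Bowtie 0.12.2, and the notes name the mouse build mm8, which cannot be the genome behind *E. grandis* gene identifiers. The authors deposited FPKM values for 26033 genes, and values at or below 0.0001 were read as 0. The deposited read counts could be tied to 22 libraries, and 2 columns of counts matched no library and were not used.

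The 5 genes, the pathway list and the marker lists were chosen with earlier results of these data known. Genes were named by rule: the 5 genes, the 3 genes most like each by Pearson's r, the pathway genes next to the chelatase and those with the largest called differences, and *EgrGLK3* and *EgrGLK37*. Eucgr.A01801, annotated like Eucgr.F01098, was named outside this rule. The pathway and marker genes were found by the descriptions in the table. Groups were set from the labels. Differences were fitted with limma 3.58.1 (variance trend, 8 group means) in R 4.3.3 on log2(FPKM + 1) over 19174 genes, those averaging 0.5 FPKM or more across all libraries. A call needs a Benjamini-Hochberg adjusted p under 0.05, taken over all of these genes. Fold changes are on that scale, which understates the change of low genes. Ratios took FPKM + 0.1 and exact permutation tests, also Benjamini-Hochberg adjusted. The alternatives were a pseudocount of 0.1 FPKM, no filter, scaling by the median ratio, only the libraries with counts, edgeR 4.0.16 and DESeq2 1.42.0 on counts, the replicate number as a block, leaving out the 3 libraries that stood apart, and leaving out each library in turn; for ratios also a pseudocount of 1 FPKM and ratios of counts plus 1. The fits were tested on simulated data. The number of libraries and the spread between them limit the precision. Among the libraries with counts, no 2 of a group agreed within sampling noise (mean chi-square per gene at least 17.6). Diploid senescent leaves could not be compared in this way, for lack of counts. No sequence is printed, since none was at hand for these genes.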

Additional observations from a re-analysis of the deposited data

Results flagged for a closer look

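The step between 2 stages differed between triploid and diploid, by a limma interaction term with an adjusted p under 0.05, in 13 of 15 cases. Of all genes tested, 26.0% differed between bud and young leaf, 51.1% between young and mature leaf and 25.7% between mature and senescent leaf. The count of 3 of 5 genes between young and mature leaf is near that background. Values are the triploid step minus the diploid step on the log2(FPKM + 1) scale. Between terminal bud and young leaf the differences were 0.76 in *ChlH*, 1.05 in *ChlD*, 0.65 in *ChlI* Eucgr.D00551, 1.49 in *ChlI* Eucgr.D00547 and 0.40 in *GUN4*. Between young and mature leaf they were 0.99 in *ChlH*, 0.80 in *ChlD* and −0.69 in Eucgr.D00547. Between mature and senescent leaf they were −1.42 in *ChlH*, −0.86 in *ChlD*, −0.63 in Eucgr.D00551, 0.83 in Eucgr.D00547 and −1.18 in *GUN4*. Eucgr.D00547 thus had the opposite sign to *ChlH* and *ChlD* at both later steps. Its calls at both of these steps were lost with a pseudocount of 0.1 FPKM. That of *ChlD* between young and mature leaf was lost when scaled. Of the 13 differences, those of *ChlD*, Eucgr.D00551 and Eucgr.D00547 between bud and young leaf, of *ChlH* between young and mature leaf, and of *ChlH*, *ChlD*, Eucgr.D00551 and *GUN4* into senescence were also called when scaled by the median ratio, with edgeR, with DESeq2 and without the 3 libraries that stood apart.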

How the results depend on the processing

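Under the alternatives other than leaving out 1 library, 98 counts of called genes stayed within 1.5 times and 6 did not, while 62 ratio tests and 452 single-gene differences kept their direction and call. Calls were lost in 14 ratio tests and 34 single-gene values, gained in 2 and 12, and the direction reversed in 2 and 22. The count in terminal buds was 1 when scaled, with edgeR and with DESeq2. The count of interactions between bud and young leaf was 3 with edgeR and with DESeq2, and that between mature and senescent leaf was 3 with only the libraries with counts. Scaling, edgeR and DESeq2 reversed the same single-gene values: *ChlH* between ploidies in senescent leaves (−0.32, −0.39 and −0.32), *ChlD* between young and mature triploid leaves (0.11, 0.13 and 0.13), Eucgr.D00547 there (0.13, 0.19 and 0.18; 0.00014 with a pseudocount of 0.1), *GUN4* between ploidies in mature leaves (−0.20, −0.16 and −0.26), and the interactions between young and mature leaf of Eucgr.D00551 (−0.24, −0.19 and −0.28) and *GUN4* (−0.31, −0.25 and −0.34). Eucgr.D00551 between young and mature diploid leaves reversed when scaled (0.0078) and with DESeq2 (0.061), and *ChlH* there without the 3 libraries that stood apart (−0.065). The cause was not tested.

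Leaving out each library in turn, 457 ratio tests and 1528 single-gene values kept direction and call. Calls were lost in 16 ratio tests and 16 single-gene values, gained in 5 and 7, and the direction reversed in 2 and 9. The count in young leaves ranged between 1 and 3. *ChlH* over *ChlD* ranged between −0.35 and −0.23 for the mean ploidy difference, between 0.35 and 0.43 for its root mean square, and between −0.27 and −0.041 for the step between bud and young leaf, which was called without diploid terminal bud library 3. Summed *ChlI* over *ChlD* ranged between −0.55 and −0.33 for the step between bud and young leaf and between −0.022 and 0.20 for that between young and mature leaf, the *ChlI* pair between 0.72 and 1.03 for the step between bud and young leaf, and *GUN4* over *ChlH* between −0.17 and 0.043 for that between young and mature leaf. Single-gene values that reversed were near 0: *ChlH* between ploidies in senescent leaves (−0.12 and −0.011) and between young and mature diploid leaves (−0.090 to 0.23 over all), *ChlD* (0.021, with −0.096 at the other end) and Eucgr.D00547 (0.064 and 0.017, with −0.040 at the other end) between young and mature triploid leaves, and the *GUN4* interaction between young and mature leaf (−0.017, −0.023 and −0.0051, with 0.075 at the other end).

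The root mean square of *ChlH* over *ChlD* was not called with a pseudocount of 1 FPKM (0.35, adjusted p = 0.0551) or as counts (0.38, adjusted p = 0.102). The *ChlI* pair with a pseudocount of 1 FPKM had 1.01 between bud and young leaf, now called, and −0.075 into senescence, reversed. Without the libraries that stood apart, summed *ChlI* over *ChlD* had −0.50 between bud and young leaf, now called, and *GUN4* over *ChlH* 0.018 between young and mature leaf, reversed.

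Replicate numbers are shared by all groups, but they did not pair the libraries by the rule that every pair's correlation exceed 0.1: r of the deviations of same-numbered libraries ran between −0.27 and 0.13 over the 12 pairs within a stage, with 3 above 0.1, and between −0.46 and 0.34 over the 36 pairs within a ploidy, with 6 above 0.1. The highest were those of diploid terminal bud and young leaf, 0.34 for number 3 and 0.27 for number 1. With the replicate number as a block, no count of called genes changed by over 1.5 times and *ChlH* in terminal buds was called (−0.33, adjusted p = 0.038). The blocked ratio tests allow few arrangements, and 12 lost their call with the same values, at an adjusted p of 0.0521 where no other is given: *ChlH* over *ChlD* −0.28, 0.40 (adjusted p = 0.142), 1.10 and −0.74; summed *ChlI* over *ChlD* 0.79 and −0.58; the *ChlI* pair 1.42 and −0.85; *GUN4* over *ChlH* −0.65, 0.84, −0.75 (adjusted p = 0.0893) and −0.55.

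Depth limits Eucgr.D00547 most, with as few as 63 counted reads, and with edgeR and DESeq2 diploid senescent leaves rest on 1 library, assumed to vary like the other groups.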
